A study of Mus musculus with 8 samples.

Results

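The genes described here are 32 genes of the choroid plexus epithelium, the sheet of cells that secretes cerebrospinal fluid, measured in hippocampal RNA of mouse offspring. They were taken as a named list, not by any threshold on these libraries, and all 32 were among the 24421 genes counted in both ages. The list was chosen with earlier results of these data known. Contrasts of the members with all genes below are therefore description and no independent test. For each gene the level in every library is given as CPM, the count scaled to the same total in every library, together with how it moved with Ttr, the most abundant member. All 32 passed the count filter of the comparison between groups, which left 15999 genes, and 30 members besides Ttr passed that of the fit on Ttr, which left 15233 genes; Tmem72 did not.

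RNA of the hippocampus was sequenced after removal of ribosomal RNA in wildtype C57BL/6J mice labelled male. IUGR marks offspring of dams injected intraperitoneally with dexamethasone, a synthetic glucocorticoid, at 1 mg/kg per day for 5 days from 14.5 days post coitum. NS marks offspring of dams given the same volume of normal saline. Each treatment was sampled at postnatal day 3 and at week 8, with 2 libraries in each of the 4 groups, and both treatments had been injected during pregnancy. The labels do not say that the libraries came from separate animals or litters, so a p-value measures only the spread between these libraries.

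The choroid plexus hangs into each brain ventricle, and in the lateral ventricle it attaches beside the fimbria, so that it lies next to the hippocampus during dissection. Its epithelial cells move ions, water and bicarbonate into the cerebrospinal fluid, take up vitamins and metals from blood, and secrete carrier proteins. Ttr encodes transthyretin, which carries thyroid hormone and the retinol-binding protein, and in the brain its RNA is made chiefly by this epithelium.

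Total counts ran from 13030277 to 18993050 per library. The level of Xist, a transcript of the inactive X chromosome, went against the label of both replicate 2 libraries at postnatal day 3, which held 4998 (NS) and 5130 (IUGR) Xist counts. The other 6 libraries held 1 to 81. The same 2 libraries had 34 and 74 counts over the Y-linked genes Ddx3y, Eif2s3y, Kdm5d and Uty, where the others had 2023 to 5364. Both replicate 2 libraries of week 8 stood apart in another way: Rpph1, the RNA component of RNase P, had 0 (NS) and 2 (IUGR) counts there and 872768 to 1119905 counts in the other 6. The group differences, the correlations with Ttr and the fits on Ttr are therefore also given without each of these pairs. Comparisons of the 2 libraries within a group cannot be, since each includes 1 of the 4.

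Ttr was the member with the widest range in absolute level. At postnatal day 3 it stood at 63.1 and 6047 CPM in the NS libraries (replicates 1 and 2, in this order throughout) and at 3107 and 413 CPM in the IUGR libraries. At week 8 it stood at 6464 and 47.4 CPM (NS) and 44.2 and 22.2 CPM (IUGR). Thus 3 libraries were high (week 8 NS replicate 1, postnatal day 3 NS replicate 2 and postnatal day 3 IUGR replicate 1), 1 was intermediate (postnatal day 3 IUGR replicate 2) and 4 were low. High and low libraries occurred within the same group: NS replicate 2 exceeded NS replicate 1 by 95.8-fold at postnatal day 3 (exact counting interval 89.7 to 102), and NS replicate 1 exceeded NS replicate 2 by 136-fold at week 8 (128 to 146). These intervals are at 95% and cover counting error only. Ttr made up 0.646% of all counts in the highest library and 0.00222% in the lowest. In bulk RNA, a library with fewer choroid plexus cells and a library with less RNA of these genes in each cell cannot be told apart.

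The other 31 members mostly followed the same order of libraries. Their summed level was 287 and 1166 CPM (NS) and 742 and 311 CPM (IUGR) at postnatal day 3, and 2897 and 369 CPM (NS) and 467 and 364 CPM (IUGR) at week 8. The 3 libraries high in Ttr were again the 3 highest. Much of this sum was 1 gene at week 8. Enpp2 made up 2062 of the 2897 CPM in NS replicate 1 and 270 of the 467 CPM in IUGR replicate 1. Of the 31, 26 were highest at postnatal day 3 in NS replicate 2 with IUGR replicate 1 next, and highest at week 8 in NS replicate 1, an order held by 2.21% of all genes tested. The 5 that departed from it were Otx2, F5, Prlr, Slc29a4 and Msx1.

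Pairs of libraries within a group show the size of this spread. At postnatal day 3, 26 of the 31 members were at least 2-fold higher in NS replicate 2 than in NS replicate 1, against 3.73% of all genes. In the IUGR group of that age, 17 of 31 were at least 2-fold higher in replicate 1 than in replicate 2, against 3.04% of all genes. At week 8, 26 of 31 were at least 2-fold higher in NS replicate 1 than in NS replicate 2, where 18.6% of all genes were. Rpph1 was at 0 counts in that replicate 2 library, and what part this difference between the libraries had was not tested. With Ttr included, the median difference on the log2(CPM + 1) scale was 1.88, 1.21 and 2.30 in these 3 pairs, and 31, 30 and 31 of 32 members lay on the higher side. Over all genes tested the medians of these pairs were 0.0034, -0.019 and 0.042. Between the week 8 IUGR libraries, both low in Ttr, the median was 0.42, with 22 of 32 members higher in replicate 1. Among the replicate 1 libraries alone, IUGR exceeded NS at postnatal day 3 by a median of 1.29 with 30 of 32 members higher, and NS exceeded IUGR at week 8 by 1.94 with 32 of 32 higher.

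**Figure D1:**
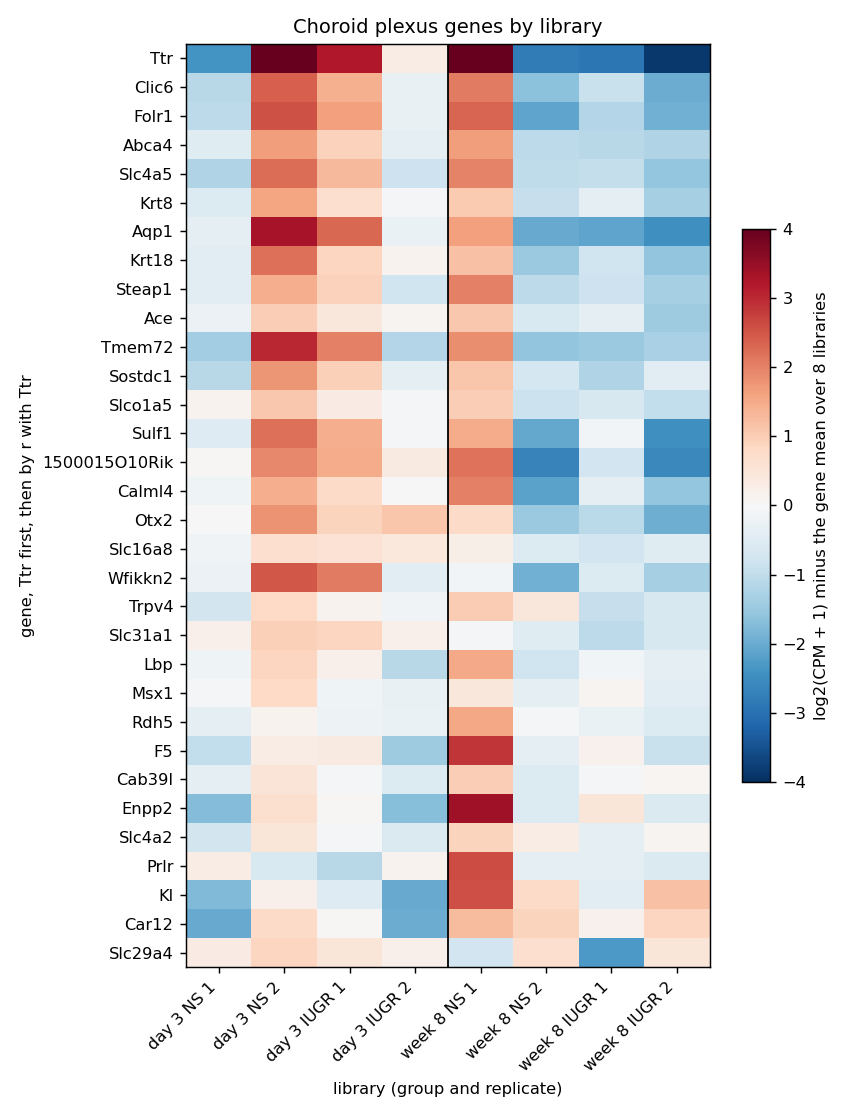
Heat map of the 32 choroid plexus genes (vertical axis, Ttr first and then by falling correlation with Ttr) in the 8 libraries (horizontal axis, group and replicate). Color gives log2(CPM + 1) minus the gene's mean over the 8 libraries, on a scale clipped at -4 and 4. Postnatal day 3 NS replicate 2, day 3 IUGR replicate 1 and week 8 NS replicate 1 are red for most genes, and Slc29a4 in the bottom line is not red in week 8 NS replicate 1.

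Secreted proteins and receptors differed among themselves in how far they followed Ttr. Enpp2, which encodes autotaxin, the secreted enzyme that makes lysophosphatidic acid and is also made by oligodendrocytes, was the second most abundant member per length (109 CPM per kilobase on average, against 1659 for Ttr). It stood at 58.4 and 303 CPM (NS) and 201 and 58.6 CPM (IUGR) at postnatal day 3, and at 2062 and 135 CPM (NS) and 270 and 131 CPM (IUGR) at week 8. Enpp2 was thus higher in the libraries high in Ttr at each age, but the week 8 libraries low in Ttr lay above the day 3 libraries low in Ttr. 1500015O10Rik, which encodes the secreted peptide precursor augurin, followed per length at 35.3 CPM per kilobase. Its levels were 17.9 and 67.1 CPM (NS) and 49.9 and 22.4 CPM (IUGR) at postnatal day 3, and 79.7 and 1.84 CPM (NS) and 9.67 and 2.06 CPM (IUGR) at week 8. Here the lowest libraries were the 2 replicate 2 libraries of week 8.

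Folr1, the folate receptor through which this epithelium passes folate into the cerebrospinal fluid, stayed close to Ttr. Folr1 levels were 2.96 and 47.2 CPM (NS) and 24.7 and 5.62 CPM (IUGR) at postnatal day 3, and 40.5 and 0.895 CPM (NS) and 2.64 and 1.17 CPM (IUGR) at week 8. The 3 libraries high in Ttr were the 3 highest, the library intermediate in Ttr came next, and the fold between week 8 NS replicates 1 and 2 was 45.3 (exact counting interval 28.0 to 78.3).

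Kl, which encodes klotho, a membrane protein that is also shed into cerebrospinal fluid, behaved otherwise. Its levels were 3.85 and 17.9 CPM (NS) and 10.7 and 3.09 CPM (IUGR) at postnatal day 3. At week 8 they were 97.9 and 27.4 CPM (NS) and 11.4 and 36.3 CPM (IUGR). Within postnatal day 3 its order was that of the higher and lower Ttr libraries, but at week 8 both libraries with the least Ttr in their group exceeded every day 3 library. Prlr, the prolactin receptor, stood at 6.95 and 3.31 CPM (NS) and 2.04 and 6.17 CPM (IUGR) at postnatal day 3, and at 39.2 and 3.95 CPM (NS) and 4.13 and 3.36 CPM (IUGR) at week 8. Only week 8 NS replicate 1 was high in Prlr, and at postnatal day 3 the 2 libraries high in Ttr were the 2 lowest. F5, coagulation factor V, was likewise highest in week 8 NS replicate 1, at 28.3 CPM, with the other 7 libraries between 0.496 and 4.14 CPM. Lbp, which binds bacterial lipopolysaccharide, ranged from 2.54 to 21.1 CPM, and Rdh5, a retinol dehydrogenase, from 1.78 to 10.97 CPM, each with its maximum in that same library.

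Among the genes of water, ion and solute transport, Aqp1, the water channel of the apical membrane, had a wide range. Aqp1 stood at 4.61 and 71.5 CPM (NS) and 34.5 and 5.07 CPM (IUGR) at postnatal day 3, and at 22.0 and 0.790 CPM (NS) and 0.676 and 0.343 CPM (IUGR) at week 8. The last 3 of these rest on 15, 10 and 5 counts. Clic6, a member of the chloride intracellular channel family, stood at 3.85 and 53.9 CPM (NS) and 26.7 and 7.39 CPM (IUGR) at postnatal day 3, and at 43.1 and 2.37 CPM (NS) and 4.67 and 1.65 CPM (IUGR) at week 8. Both genes were high in the 3 libraries high in Ttr. Among these 3, Aqp1 was lowest in the week 8 library, whereas Clic6 in that library lay between the 2 day 3 libraries.

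Slc4a5, a sodium bicarbonate cotransporter, ranged from 0.206 to 15.8 CPM and Abca4, a retinoid transporter, from 2.19 to 22.2 CPM. Abca4 had the same order of libraries as Ttr in all 8. Tmem72, a gene for a transmembrane protein, went from 1 count in week 8 NS replicate 2 to 429 counts in postnatal day 3 NS replicate 2, that is from 0.0527 to 24.5 CPM. Its fold between the NS libraries at week 8, 137 counts against 1, was 200 with a counting interval of 35.2 to 7940. Steap1, of a metalloreductase family, ranged up to 9.13 CPM and Slco1a5, an organic anion transporter, up to 3.20 CPM. Both had 0 counts in week 8 IUGR replicate 2, where 3 counts would be 0.206 CPM.

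Some transporters and their regulators differed less between libraries. Slc31a1, the copper uptake transporter, stood at 36.2 and 61.3 CPM (NS) and 57.0 and 35.7 CPM (IUGR) at postnatal day 3, and at 29.6 and 21.7 CPM (NS) and 14.6 and 19.3 CPM (IUGR) at week 8. All 4 day 3 libraries thus lay above all 4 week 8 libraries. Cab39l, a scaffold of the kinases that control ion cotransporters, stood at 27.7 and 52.1 CPM (NS) and 34.2 and 23.9 CPM (IUGR) at postnatal day 3, and at 71.2 and 23.9 CPM (NS) and 34.8 and 37.9 CPM (IUGR) at week 8. Its highest and lowest libraries differed by 2.98-fold. Slc4a2, an anion exchanger of the basolateral membrane, stood at 15.6 and 37.7 CPM (NS) and 24.9 and 17.3 CPM (IUGR) at postnatal day 3, and at 50.3 and 32.9 CPM (NS) and 20.1 and 28.5 CPM (IUGR) at week 8. Its highest and lowest libraries differed by 3.22-fold, against 291-fold for Ttr.

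Car12, a membrane carbonic anhydrase, stood at 3.65 and 31.2 CPM (NS) and 18.5 and 3.75 CPM (IUGR) at postnatal day 3, and at 44.4 and 34.2 CPM (NS) and 20.1 and 33.0 CPM (IUGR) at week 8. It tracked Ttr at postnatal day 3 but was above 20 CPM in every week 8 library. Slc29a4, the plasma membrane monoamine transporter, had the lowest correlation with Ttr of all members (given below). Its levels were 33.9 and 49.4 CPM (NS) and 37.6 and 31.0 CPM (IUGR) at postnatal day 3, and 15.1 and 43.2 CPM (NS) and 4.67 and 37.8 CPM (IUGR) at week 8. At week 8 it was lower in both replicate 1 libraries than in both replicate 2 libraries, although Ttr was highest in a replicate 1 library. The other transport genes, Slc16a8 (a lactate transporter), Trpv4 (a calcium-permeable cation channel) and Calml4 (a calmodulin-like protein), had their maxima at 3.03, 5.37 and 27.1 CPM in one of the 2 libraries highest in Ttr.

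The promoters of genes that moved with Ttr are printed because Otx2, itself a member, encodes a homeodomain factor of the choroid plexus whose core motif can be searched. RefSeq windows on GRCm38.p6 were found for 24 of the 32 members, as 33 windows, since some genes have several starts. Shown are the 250 bases before the annotated start, 5′ to 3′ on the strand of the gene, for 3 genes whose slope on Ttr passed the test (given below) and for Slc29a4, the member with the lowest correlation with Ttr. Capitals mark 3 motifs on either strand. The first is TAATCC, the core bound by OTX proteins. The next is GGGCGG, the binding core of Sp factors, and neighbouring matches of it overlap in the last sequence. Another is TATAAA, the element that often lies near a start site.
Abca4, chr3:122044210-122044459, plus strand: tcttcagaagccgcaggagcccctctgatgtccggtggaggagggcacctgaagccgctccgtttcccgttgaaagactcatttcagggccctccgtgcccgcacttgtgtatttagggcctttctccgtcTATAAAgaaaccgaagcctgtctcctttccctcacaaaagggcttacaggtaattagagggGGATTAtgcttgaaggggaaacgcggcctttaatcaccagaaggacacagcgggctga
Aqp1, chr6:55336049-55336298, plus strand: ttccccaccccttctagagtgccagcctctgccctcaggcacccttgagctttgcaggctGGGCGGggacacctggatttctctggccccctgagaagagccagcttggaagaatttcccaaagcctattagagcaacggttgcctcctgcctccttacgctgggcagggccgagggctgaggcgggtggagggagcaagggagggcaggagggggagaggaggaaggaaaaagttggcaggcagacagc
Slc4a5, chr6:83237125-83237374, plus strand: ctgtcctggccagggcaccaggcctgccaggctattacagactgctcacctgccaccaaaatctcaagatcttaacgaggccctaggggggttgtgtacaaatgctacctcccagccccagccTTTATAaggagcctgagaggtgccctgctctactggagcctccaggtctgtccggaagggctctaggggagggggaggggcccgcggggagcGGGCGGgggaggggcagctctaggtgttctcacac
Slc29a4, chr5:142701851-142702100, plus strand: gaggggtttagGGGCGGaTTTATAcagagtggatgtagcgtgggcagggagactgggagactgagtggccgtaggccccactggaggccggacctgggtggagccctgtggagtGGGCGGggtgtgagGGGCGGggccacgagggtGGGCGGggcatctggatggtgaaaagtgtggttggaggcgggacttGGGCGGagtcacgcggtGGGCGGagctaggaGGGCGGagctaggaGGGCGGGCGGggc
Abca4 held 1 TAATCC and 1 TATAAA match, Slc4a5 held 1 GGGCGG and 1 TATAAA match, and Aqp1 held 1 GGGCGG match, whereas Slc29a4 held 9 overlapping or separate GGGCGG matches and 1 TATAAA match. By the GENCODE M21 annotation, the Aqp1 window lies outside the gene's span and the last 17 bases of the Abca4 window lie in the first exon, in its untranslated part. The Slc4a5 and Slc29a4 windows lie within the span of their genes, before a later start; 103 bases of the former fall in an exon of a noncoding transcript and none of the latter in an exon. TAATCC occurred in 3 of 33 member windows (9.09%), those of Abca4, Ace and Otx2, and in 6.25% of all 32851 windows of that length. GGGCGG occurred in 13 member windows (39.4%) and 32.7% of all windows, and TATAAA in 7 (21.2%) and 12.4%. A search for GTTGCC, a motif of RFX factors, found 6 windows (18.2%, against 10.4% of all), and one for TGTTTA, a forkhead motif, found 4 (12.1%, against 12% of all). Motif matches are letters in these windows and no measurement of binding.

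The transcription and signalling members followed Ttr to differing degrees. Otx2, the homeodomain factor named above, stood at 4.61 and 18.8 CPM (NS) and 9.52 and 11.2 CPM (IUGR) at postnatal day 3, and at 8.83 and 1.05 CPM (NS) and 1.69 and 0.480 CPM (IUGR) at week 8. Unlike Ttr, it was higher in IUGR replicate 2 than in IUGR replicate 1 at postnatal day 3. Sostdc1, a secreted antagonist of BMP and Wnt signals, ranged from 1.76 to 20.4 CPM, and Wfikkn2, a secreted protein with protease inhibitor domains, from 0.842 to 38.7 CPM. Both were highest in postnatal day 3 NS replicate 2, but in week 8 NS replicate 1 Wfikkn2 reached no more than 5.45 CPM. Sulf1, which removes sulfate groups from heparan sulfate, stood at 15.5 and 107 CPM (NS) and 64.4 and 21.7 CPM (IUGR) at postnatal day 3, and at 65.2 and 4.74 CPM (NS) and 21.1 and 3.36 CPM (IUGR) at week 8. Ace, the angiotensin-converting enzyme, ranged from 6.17 to 40.1 CPM and the homeodomain gene Msx1 from 1.85 to 5.71 CPM. Krt8 and Krt18, the paired keratins of simple epithelia, ranged from 0.274 to 8.45 and from 0.274 to 16.7 CPM, with maxima in postnatal day 3 NS replicate 2 and minima of 4 counts each in week 8 IUGR replicate 2.

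Covariation with Ttr was measured over the 8 libraries as the correlation of log2(CPM + 1) values. Each point is 1 library, each value is scaled by its library's total, and 3 high libraries stand apart from 4 low ones, so a pooled coefficient mostly contrasts these. The median Pearson's r of the 31 members with Ttr was 0.88, against 0.116 over the 15998 other genes tested, and all 31 values were above 0. After centring each age on its own mean the medians were 0.903 and 0.0615. Without the 2 libraries farthest from the median Ttr level, week 8 NS replicate 1 and postnatal day 3 NS replicate 2, they were 0.847 and 0.13. They were 0.882 and 0.0872 without both postnatal day 3 replicate 2 libraries, and 0.876 and 0.0424 without both week 8 replicate 2 libraries.

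An r of at least 0.9 was reached by 15 of 31 members, against 0.256% of all genes, of which 41 reached it. Without the 2 farthest libraries 8 members did. Without both postnatal day 3 replicate 2 libraries 11 did, and without both week 8 replicate 2 libraries 15 did. The 0.256% holds for all 8 libraries. The share of all genes at that r in the smaller sets is not given here, so these counts have no background to be read against. Clic6 and Folr1 had the highest r among members, 0.982 each (exact permutation p = 1.98e-04 and 3.47e-04, two-sided, n = 8 libraries), with Spearman's rho of 0.905 for both. Abca4 had r = 0.976 and rho = 1.0, with an exact permutation p of 2.48e-05 for r, the smallest that the 40320 orders of 8 libraries can give. Adjusted over all 15998 genes by the Benjamini-Hochberg method, no permutation p passed 0.05: the share of genes with r of at least 0.9 and an adjusted p under 0.05 was 0%, and Abca4 had an adjusted exact permutation p of 0.397. With unadjusted exact permutation p-values under 0.05 for r there were 22 members and 693 genes in all.

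Next in order came Slc4a5 and Krt8 (r = 0.962 each), Aqp1 (0.951), Krt18 (0.95), Steap1 (0.94), Ace (0.938) and Tmem72 (0.936). Without the 2 farthest libraries r was 0.966 for Clic6, 0.96 for Folr1, 0.957 for Abca4, 0.92 for Slc4a5 and 0.946 for Aqp1. The 5 lowest members were Slc29a4 with r = 0.156 (exact permutation p = 0.789), Car12 with 0.216 (0.556), Kl with 0.227 (0.585), Prlr with 0.323 (0.531) and Slc4a2 with 0.525 (0.177), none of which passed 0.05. After centring each age, r was 0.823 for Kl, 0.704 for Car12, 0.859 for Slc4a2 and 0.954 for Enpp2, but was 0.513 for Prlr and -0.0536 for Slc29a4. Without the 2 farthest libraries and without centring, Kl, Prlr, Car12, Slc4a2 and Cab39l had negative r, at -0.427, -0.394, -0.267, -0.147 and -0.0678, so their positive r rests on those libraries. In the same setting r fell from 0.59 to 0.0354 for Enpp2 and from 0.697 to 0.0848 for Msx1.

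**Figure D2:**
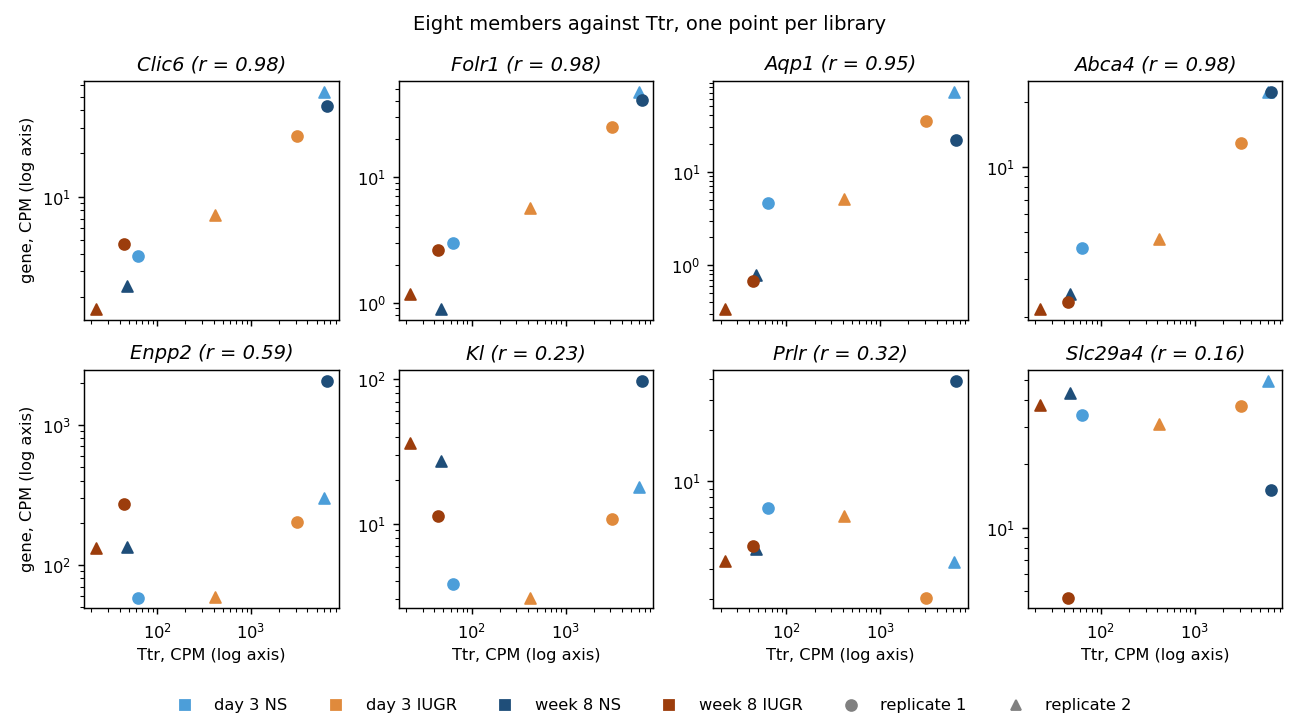
Level of 8 members (vertical axes, CPM, log scale) against Ttr (horizontal axes, CPM, log scale) with 1 point per library; color marks the group and shape the replicate. Clic6, Folr1, Aqp1 and Abca4 in the top line climb with Ttr from the low to the high libraries. From the low to the intermediate library of postnatal day 3, Clic6 and Folr1 climb as well. Over that step Aqp1 goes only from 4.61 to 5.07 CPM and Abca4 from 4.20 to 4.63 CPM. Enpp2 and Kl form separate lines for the 2 ages, Prlr is high in 1 library and Slc29a4 shows no trend.

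A model of counts with age and log2 Ttr level as terms gave a slope for each gene, where 1 means proportional to Ttr. This edgeR quasi-likelihood fit called 6 of 30 members at an adjusted p under 0.05, against 12 genes or 0.0788% of all genes tested. By edgeR they were Slc4a5 with a slope of 0.68 ± 0.063 (SE; adjusted p = 0.00776), Aqp1 with 0.66 ± 0.056 (0.00575), Folr1 with 0.62 ± 0.053 (0.00575), Clic6 with 0.55 ± 0.047 (0.00575), Enpp2 with 0.43 ± 0.050 (0.028) and Abca4 with 0.40 ± 0.039 (0.00887). All 6 slopes were below 1, so these genes changed less than Ttr did between libraries. The median slope of members was 0.36, against -0.0027 over all genes, 29 of 30 slopes were positive, and 27 members had an unadjusted p under 0.05, as did 495 of all genes. The exception was Slc29a4 at -0.05 ± 0.11 (adjusted p = 0.851 by edgeR), a sign that did not hold: its slope was 0.13 without both week 8 replicate 2 libraries, 0.058 without week 8 NS replicate 1 and 0.013 without the age term. In the fit without week 8 NS replicate 1, Prlr had a negative slope instead, at -0.21 ± 0.081.

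The calls depended on single libraries. Without postnatal day 3 NS replicate 2, without week 8 NS replicate 1, or without both postnatal day 3 replicate 2 libraries, no member passed in edgeR. At an unadjusted p under 0.05 these 3 fits still held 27, 21 and 27 members, and 555, 174 and 318 genes in all; DESeq2 and limma voom were not run on those subsets. For 4 of the members, over the fits that left out each library in turn the slope ranged from 0.62 to 0.75 for Aqp1, 0.60 to 0.65 for Folr1, 0.52 to 0.58 for Clic6 and 0.64 to 0.80 for Slc4a5. Without both postnatal day 3 replicate 2 libraries Aqp1 had a slope of 0.64 (adjusted p = 0.0631) and Folr1 of 0.60 (0.169) in edgeR. In that fit 30 of 31 members had a positive slope. Without both week 8 replicate 2 libraries edgeR called 16 of 31 members, the 6 named among them, and 28 genes in all. On all 8 libraries DESeq2 called 17 members and 0.315% of all genes (48), and limma voom called 7 members and 0.0853% of all genes (13), in both cases including the 6 named.

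**Figure D3:**
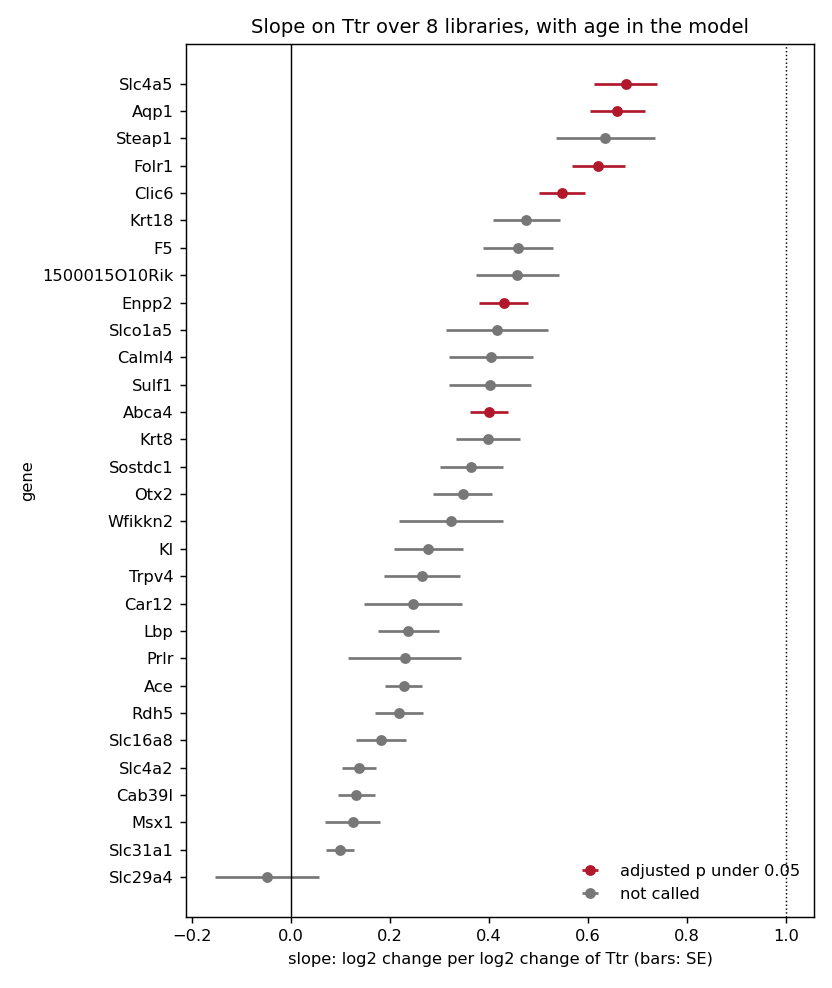
Slope of each of 30 members on Ttr (horizontal axis, log2 change of the gene per log2 change of Ttr, with age in the model; bars are SE from edgeR), ordered by slope. The 6 members with an adjusted p under 0.05 are red and lie between 0.40 and 0.68, below the dotted line at 1 that marks proportion to Ttr, and Slc29a4 lies at -0.05.

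Genes outside the 32 were ranked by r with Ttr to see which patterns were nearest. Of 28 other choroid plexus genes, 6 had an r of at least 0.9: Kcne2 (0.99), Cldn2 (0.967), Cdh3 (0.952), Cldn1 (0.935), Col9a3 (0.932) and Slc2a12 (0.907), named after their values were seen. The median r of all 28 was 0.672, below the 0.88 of the members, and their values ran from -0.534 to 0.99. Kcne2, a potassium channel subunit, stood at 0.550 and 43.1 CPM (NS) and 18.5 and 3.42 CPM (IUGR) at postnatal day 3, and at 28.3 and 0.685 CPM (NS) and 0.541 and 0.274 CPM (IUGR) at week 8. It had the highest r of all genes tested and a slope on Ttr of 0.84 ± 0.039 (adjusted p = 2.43e-04 by edgeR). Cldn2, a claudin of leaky tight junctions, had a slope of 0.66 ± 0.061 (adjusted p = 0.00776 by edgeR), and the remaining 24 of the 26 other choroid plexus genes in that fit were not called. The most abundant of these genes, Atp1b1, a sodium pump subunit that neurons also make, had r = -0.534.

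Outside all lists, the 8 genes with the highest r over the 8 libraries and a mean of at least 1 CPM were Col4a3 (0.979), Defb11 (0.969), Prr32 (0.967), Trpm3 (0.959), Wfdc2 (0.938), Frem1 (0.931), Wdr72 (0.919) and Rbm47 (0.915). Trpm3, a cation channel, was the most abundant of them, at 94.7 and 204 CPM (NS) and 142 and 121 CPM (IUGR) at postnatal day 3, and 180 and 68.0 CPM (NS) and 67.4 and 49.0 CPM (IUGR) at week 8. Defb11, a beta-defensin, went from 0 counts in both week 8 IUGR libraries to 8.28 CPM in postnatal day 3 NS replicate 2. Col4a3, Defb11 and Prr32, with Pla2g5, completed the 12 genes called for slope.

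Markers of neighbouring cell types did not show the same order as Ttr, and their part in the results was not tested. The summed level of 12 ependymal genes, led by Foxj1, was 154 and 124 CPM (NS) and 160 and 136 CPM (IUGR) at postnatal day 3, and 158 and 61.8 CPM (NS) and 125 and 43.7 CPM (IUGR) at week 8. Their median r with Ttr was 0.54. The sum over 14 genes of the leptomeninges and fibroblasts, among them Ptgds and Igf2, was 1387 and 1172 CPM (NS) and 523 and 587 CPM (IUGR) at postnatal day 3. At week 8 it was 2629 and 585 CPM (NS) and 1254 and 742 CPM (IUGR), with week 8 NS replicate 1 again the highest library, and the median r was 0.547. The median r was 0.153 for 10 endothelial genes and -0.508 for 10 neuronal genes, and no gene of these 4 lists reached an r of 0.9. In the edgeR fit on Ttr, slopes were positive for all 12 ependymal genes (median 0.085) and all 14 leptomeningeal and fibroblast genes (0.11). They were positive for 7 of 10 endothelial genes, 3 of 10 neuronal genes and 48.1% of all genes. A positive slope was thus not particular to the members, but no gene of these 4 lists was called for slope. Of 6 blood cell genes, Alas2 and Slc4a1 passed the filter, and their summed level was 78.6 CPM in week 8 NS replicate 1 against 0.948 to 12.7 CPM elsewhere. Their median r with Ttr was 0.645. Their slopes on Ttr were positive, with a median of 0.35 close to that of the members, and neither was called in edgeR. The 4 hemoglobin genes on that list are listed at 0 in every library.

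Between the ages, members differed in their level relative to Ttr. This was read first in the 3 libraries high in Ttr, as the gene's CPM in percent of Ttr CPM, in the order postnatal day 3 NS replicate 2, day 3 IUGR replicate 1 and week 8 NS replicate 1. Folr1 was at 0.781%, 0.794% and 0.627%, and Clic6 at 0.891%, 0.857% and 0.667%. Both proportions were lower in the week 8 library, at 0.803 and 0.79 of the 2 day 3 proportions for Folr1 and at 0.749 and 0.778 for Clic6. Enpp2 was at 5.0%, 6.48% and 31.9%, Kl at 0.296%, 0.345% and 1.51%, and Prlr at 0.0548%, 0.0657% and 0.607%. Conversely, Aqp1 was at 1.18%, 1.11% and 0.34%, and Wfikkn2 at 0.639%, 0.929% and 0.0843%. Relative to Ttr, 10 members were higher and 17 lower in the week 8 library than in both day 3 libraries. Ttr was highest in that week 8 library, so a gene of unchanged CPM would count as lower. The share over all genes was not computed, and these counts are no result about the members. With 1 such library at week 8, this reading has no replicate check.

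**Figure D4:**
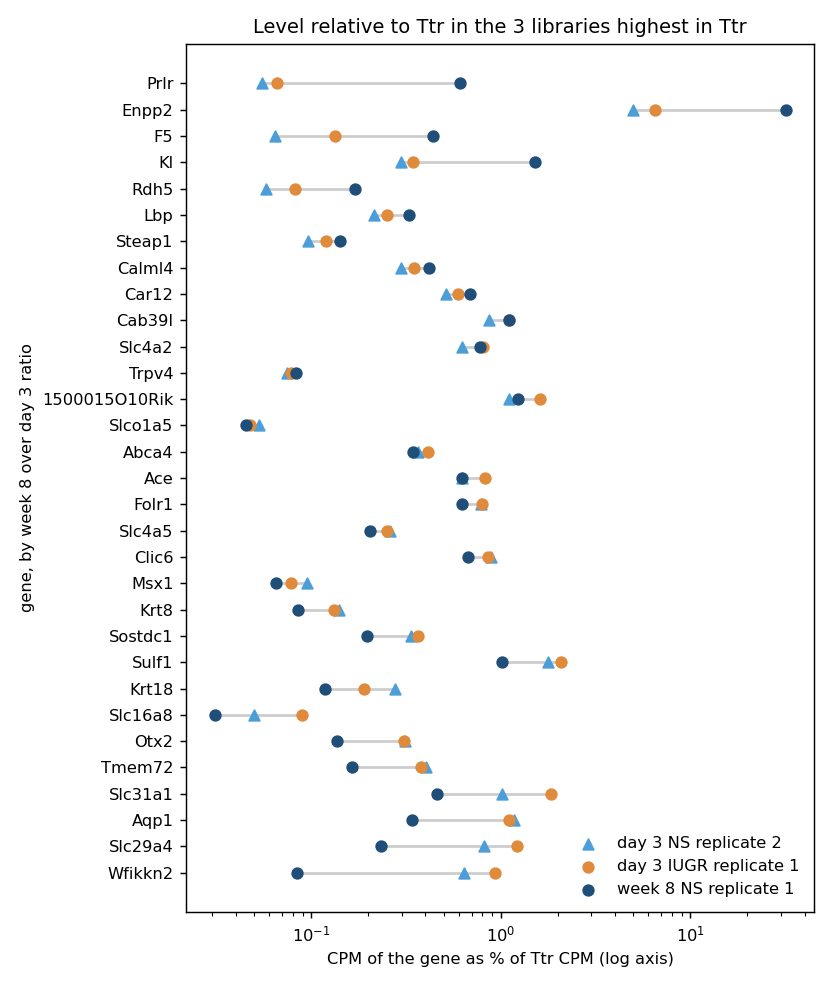
Level of each member as percent of Ttr CPM (horizontal axis, log scale) in the 3 libraries highest in Ttr, ordered by the week 8 to postnatal day 3 ratio. The dark points of week 8 lie to the right of both day 3 points for Prlr, Enpp2, F5 and Kl and to their left for Aqp1, Slc29a4 and Wfikkn2.

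The age difference at equal Ttr level was tested over all 8 libraries as the age term in the edgeR model above. It called 9 of 30 members, 6 higher and 3 lower at week 8, whereas 38.3% of all genes tested were called, so the members' share was below that of all genes. Kl was higher by 3.09 ± 0.50 on the log2 scale (adjusted p = 0.00219), Enpp2 by 2.60 ± 0.34 (8.09e-04), F5 by 2.44 ± 0.49 (0.00555), Car12 by 2.35 ± 0.68 (0.0264), Rdh5 by 1.05 ± 0.32 (0.0317) and Slc4a2 by 0.91 ± 0.23 (0.0162), all by edgeR. Aqp1 was lower, at -1.64 ± 0.38 (0.0106), as were Otx2 at -1.49 ± 0.39 (0.0179) and Slc31a1 at -0.82 ± 0.19 (0.0115). Without both postnatal day 3 replicate 2 libraries 4 of these remained called, Kl at 2.95, Enpp2 at 2.36, F5 at 1.88 and Aqp1 at -1.92. Without week 8 NS replicate 1 the called members were Car12, Enpp2 and Kl, and without postnatal day 3 NS replicate 1 they were Enpp2, F5, Kl and Rdh5. Kl and Enpp2 were thus the 2 called in every alternative fit of this age term. For the fits on fewer libraries above, the share of all genes called is not given here. A call that persisted therefore does not set these members apart from other genes. Without both week 8 replicate 2 libraries 12 members were called, all 9 named here among them, and 8755 genes in all. Prlr, at 1.17 ± 0.73, and Wfikkn2, at -1.45 ± 0.74, did not pass (adjusted p = 0.241 and 0.16 by edgeR). Folr1, at -0.065 ± 0.35, and Clic6, at 0.13 ± 0.32, did not pass either (adjusted p = 0.902 and 0.783 by edgeR). In a separate edgeR fit of 4 group means with Ttr as a covariate, the age difference called Aqp1, Enpp2 and Wfikkn2 in NS. In IUGR that fit called Enpp2 alone, so Kl was called in neither. The share of all genes called in that fit is not given here either.

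Without the Ttr term, no member passed between the ages. In NS, edgeR called 0 of 32 members while 14.1% of all genes were called, and in IUGR 0 of 32 while 16.8% were. At an unadjusted p under 0.05 there were 2 members in NS (Kl and Slc31a1, chosen after their values were seen) and 4 in IUGR, and 5171 and 5487 genes in all. In NS, DESeq2 called 1 member, Kl, and 25.7% of all genes, and limma voom no member and 14.3%. In IUGR, DESeq2 called Aqp1, Otx2, Slc31a1 and Ttr and 28.6% of all genes, and limma voom no member and 16.6%. Without both week 8 replicate 2 libraries, where each week 8 group is 1 library assumed to vary like the others, edgeR called 6 members in NS and 3 in IUGR while 6201 and 6778 genes were called. The median log2 change of members from postnatal day 3 to week 8 was -0.15 in NS and -1.59 in IUGR, against 0.035 and 0.018 over all genes, with 13 and 8 of 32 members higher at week 8. Ttr itself changed by 0.11 ± 2.21 (SE) in NS and by -5.63 ± 2.70 in IUGR. These are errors of a difference between group means and not the spread between replicates. Slc31a1 came nearest to the threshold, at -1.35 ± 0.38 in IUGR (adjusted p = 0.0542 by edgeR).

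No member passed the test between the dexamethasone and saline groups at either age. At postnatal day 3, edgeR called 0 of 32 members and 0% of all genes, with no member and 96 genes at an unadjusted p under 0.05, and DESeq2 and limma voom called no gene. The members' median log2 difference, IUGR minus NS, was -0.53, against 0.0093 over all genes, and 31 of 32 were below 0. This sign depended on 1 library: without postnatal day 3 NS replicate 2 the median was 1.159, and without both replicate 2 libraries it was 1.55. Ttr had a difference of -0.78 ± 2.22 (adjusted p = 1 by edgeR), which became 4.81 and 5.63 in those fits. Both IUGR libraries lay below both NS libraries for 1 of 31 members besides Ttr, Msx1, against 16.6% of all genes.

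At week 8, edgeR again called 0 of 32 members and 0% of all genes, with 161 genes and 2 members, Trpv4 and Rdh5, at an unadjusted p under 0.05. DESeq2 called 1 gene, which was no member, and limma voom called none. The median difference was -2.14, against 0.017 over all genes, and all 32 members were below 0 in this fit. Leaving out week 8 NS replicate 1, the library high in Ttr, brought the median to 0.056, and leaving out both week 8 replicate 2 libraries brought it to -2.67, with no member called. Ttr had a difference of -6.53 ± 2.82 (adjusted p = 1 by edgeR), although NS replicate 2, at 47.4 CPM, was close to the IUGR libraries at 44.2 and 22.2 CPM. The 7 members besides Ttr with both IUGR libraries below both NS libraries were Trpv4, Aqp1, Car12, Slc31a1, Abca4, Slc4a2 and Rdh5, against 9.01% of all genes. Trpv4 was at 5.37 and 3.26 CPM (NS) and 0.676 and 1.03 CPM (IUGR), from 70, 62, 10 and 15 counts (difference -2.25 ± 0.79, adjusted p = 1 by edgeR), and it was named after its values were seen. Being below 0 was not particular to the members. All 14 leptomeningeal and fibroblast genes were below 0 at postnatal day 3 (median -0.95) and at week 8 (-0.75). So were 9 of 10 endothelial genes at each age (medians -0.45 and -0.93). The 2 blood cell genes tested were also below 0 at each age (medians -0.43 and -2.46). Among ependymal genes 5 of 12 were below 0 at postnatal day 3 and 7 of 12 at week 8, and among neuronal genes 7 of 10 and 5 of 10.

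The difference between the dexamethasone effects at the 2 ages was tested directly as an interaction. It called 0 of 32 members and 0% of all genes in edgeR, with no member and 82 genes at an unadjusted p under 0.05, and DESeq2 and limma voom called no member. For Ttr it was -5.74 ± 3.36 (adjusted p = 1 by edgeR).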

How the data were processed

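RNA of 8 hippocampal libraries was analysed from raw counts of reads per gene symbol, which the authors deposited as 1 table for each age. Per the submitters' processing notes, the tools were featureCounts 1.6.1, HISAT2 2.1.0, DESeq2 1.26.0, cutadapt 1.16 and SAMtools 1.9, with the build mm10 and no roles stated. How strand and multiply matching reads were counted, and with which annotation, is not given in the sources used here, so antisense or overlapping genes and close paralogs have uncertain values. Gene lengths from the deposited tables were used for CPM per kilobase, and the deposited normalized tables were not used.

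CPM was the count over the library total. Total counts were 13030277 to 18993050 per library, at which 3 counts, the limit taken for a count of 0, are 0.158 to 0.23 CPM. Counts were fitted with edgeR 4.0.16 in R 4.3.3 (TMM scaling, default expression filter, quasi-likelihood F test, Benjamini-Hochberg adjustment over all genes tested, threshold 0.05). One model had 4 group means over all 8 libraries, and another had age and log2(Ttr CPM + 1). The SE is the size of the log2 change divided by the square root of F. Correlations used log2(CPM + 1) and exact two-sided permutation over all orders of libraries in scipy 1.17.1. Folds between 2 libraries carry exact 95% intervals from the counts. The fits were tested on simulated data with a smaller spread between libraries than these data have. That test therefore does not show how the fits perform at the spread seen here.

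Full values per library were given for the 10 members with the highest mean CPM, Ttr among them, and the 5 with the lowest r. Outside the list, the 8 genes nearest to Ttr were named. Values of other members were chosen for print after they were seen. Members, lists and rules were chosen with earlier results of these data known. Promoter windows came from RefSeq on GRCm38.p6 and gene positions from GENCODE M21. Alternatives were other scalings (RLE, upper quartile, totals without Rpph1), other count filters (none, a mean of at least 10 counts), DESeq2 1.42.0, limma 3.58.1 (voom), other covariates, each age alone, each library left out and both replicate 2 libraries of an age left out.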

Additional observations from a re-analysis of the deposited data

How the results depend on the processing

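With n = 2 per group and a 291-fold range of Ttr, single libraries decided most calls, and low members rest on few counts. No IUGR comparison or interaction called a member under any alternative. Removing both postnatal day 3 replicate 2 libraries was added after the data were seen for the fit on Ttr and for r, as was removing both week 8 replicate 2 libraries throughout. The latter gave 16 called slopes on Ttr, 6 members called between ages in NS with a median change of 0.6934, and 3 in IUGR. The cause of each change below was not tested. Counts of members in this section come without the share of all genes, so they show only how far the calls moved.

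The number of members called for a slope on Ttr, 6 in the report, was 17 with DESeq2, 0 with 4 group means in place of age and 0 without both postnatal day 3 replicate 2 libraries. Leaving out each library in turn gave 0 to 10. For the age term at equal Ttr, 9 in the report, there were 5 with 4 group means, 20 with the summed members in place of Ttr, 4 without both postnatal day 3 replicate 2 libraries, and 3 to 12 leaving out each library. The summed members are the tested genes themselves, so the 20 is no independent check. Of the 9 in the report, 6 were among the 20. Enpp2 alone made up 2062 of the 2897 CPM of that sum in week 8 NS replicate 1. Members with r of at least 0.9, 15 in the report, were 8 without the 2 libraries farthest in Ttr.

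From postnatal day 3 to week 8, members called in NS were 1 with DESeq2 and 3 with Ttr as a covariate. In IUGR they were 1 with upper-quartile scaling, 1 with totals without Rpph1, 4 with DESeq2, 1 with Ttr as a covariate and 0 to 2 leaving out each library. The median change in NS was 1.426 without both postnatal day 3 replicate 2 libraries and -2.12 to 1.427 leaving out each library. The median change in IUGR was 0.7451 with Ttr as a covariate.

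The IUGR minus NS median at postnatal day 3 was 1.554 without both replicate 2 libraries and -1.538 to 1.159 leaving out each library. For Ttr these were 5.628 and -2.918 to 4.805, and 0.9207 with limma voom. At week 8 the median was 0.2654 with Ttr as a covariate and -2.795 to 0.05647 leaving out each library.

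Replicate numbers shared between groups mark no stated litter or batch. Over all genes, the NS and IUGR differences between replicates 1 and 2 correlated at -0.0747 at postnatal day 3 and 0.854 at week 8. Over the members they correlated at -0.841 and 0.681. The members' differences thus ran opposite in NS and IUGR at postnatal day 3, which a shared block cannot take up. With the replicate block, 13 members had a called slope, Slc29a4 had a slope of 0.14, 2 were called between ages in NS and 2 in IUGR, the NS median between ages was 0.7694, and Ttr at postnatal day 3 differed by 0.8473 (IUGR minus NS).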
